A study of Mus musculus with 6 samples.

Results

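The genes examined here encode enzymes that make and degrade prostanoids, and receptors that sense them. They are the 10 members *Ptgs1*, *Ptgs2*, *Ptgds*, *Ptges*, *Ptgis*, *Tbxas1*, *Hpgd*, *Ptger2*, *Ptger4* and *Ptgir*, found by symbol among the 54532 genes of the deposited read counts. They were picked by their role in the pathway with the genotype differences (log2 fold change and adjusted *p*-value) of these same libraries already known. The genotype differences of the members are therefore given as a description and not as a test.

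The counts come from lungs of 3 GR+/+ and 3 GRdim/dim mice of strain 129/SvEv x C57BL/6, one library per mouse. GRdim/dim mice carry, in every cell of the body, a point mutation of the glucocorticoid receptor (GR) that impairs its dimerization, and GR+/+ mice were littermates with the unmutated receptor. Per the study's methods, all mice were 10 to 16 weeks old, anesthetized and ventilated, bled to 35 mmHg of mean arterial pressure for 1 h of hemorrhagic shock (HS), and then resuscitated over 4 h with their own blood, colloids and norepinephrine. All 6 mice thus had HS, and a difference between genotypes in this set cannot be told apart from one that existed before HS. Per the methods, 2 GR+/+ mice were female and 1 was male, 1 GRdim/dim mouse was female and 2 were male, and the authors state that each mouse was operated on a day of its own.

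Prostanoids are lipid mediators made from arachidonic acid. The cyclooxygenases, encoded by *Ptgs1* and *Ptgs2*, convert arachidonic acid to prostaglandin H2, and terminal synthases turn this into prostaglandin D2, prostaglandin E2, prostacyclin or thromboxane A2, which act through G protein-coupled receptors. In the lung, prostacyclin dilates and thromboxane A2 constricts vessels, 15-hydroxyprostaglandin dehydrogenase (*Hpgd*) inactivates prostaglandins, and glucocorticoids are known to repress *Ptgs2* in inflamed tissue.

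The libraries held 16361747 to 32082940 counts in GR+/+ and 15687734 to 24444604 in GRdim/dim lungs. Of 16568 genes with enough reads to be tested between genotypes with edgeR's quasi-likelihood test, 28 were called, that is, passed 0.05 after Benjamini-Hochberg adjustment with a change of over 0.5 on the log2 scale, up or down. This is 0.169% of the genes tested. With DESeq2, 274 of 16150 genes were called (1.70%). As a check of the tissue label, markers of alveolar type 2 cells summed to 19417 to 28083 CPM (counts scaled to a library total of 1000000, with TMM factors) and those of endothelial cells to 3409 to 5227 CPM over the 6 libraries, and all markers of both lists were detected in every library.

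The sequences just before the start sites of both cyclooxygenase genes are shown because GR binds DNA and *Ptgs1* had the largest genotype difference of the members. The 250 bases before the RefSeq start of *Ptgs1* lie at chr2:36230176-36230425 (GRCm38.p6, plus strand) and those of *Ptgs2* at chr1:150099781-150100030 (plus strand). Capitals mark a match to TGTTCT or AGAACA, the 2 strands of the GR half-site.
Ptgs1: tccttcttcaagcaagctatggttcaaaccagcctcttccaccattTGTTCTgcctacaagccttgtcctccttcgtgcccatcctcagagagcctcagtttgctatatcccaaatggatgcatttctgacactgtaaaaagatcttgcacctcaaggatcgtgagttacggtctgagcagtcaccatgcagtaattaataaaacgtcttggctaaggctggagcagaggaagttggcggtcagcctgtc
Ptgs2: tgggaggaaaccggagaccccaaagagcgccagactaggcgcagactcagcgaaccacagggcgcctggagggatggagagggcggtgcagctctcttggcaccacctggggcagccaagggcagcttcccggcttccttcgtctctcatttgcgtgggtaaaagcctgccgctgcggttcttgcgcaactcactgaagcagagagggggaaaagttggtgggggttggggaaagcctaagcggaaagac
In *Ptgs1*, the match begins 204 bases before the start site, and in *Ptgs2* there was none. GC content was 48% before *Ptgs1* and 61.6% before *Ptgs2*, with a median of 52.4% over all 32817 promoters of the RefSeq table. Of the 9 members in that table, which has no entry for *Ptgis*, 3 held a GR half-site (*Ptges*, *Ptgs1* and *Ptger2*), compared with 16.1% of all promoters. These 3 members had log2 fold changes of 0.43, -1.29 and -0.06 between genotypes. A pair of half-sites, AGAACA and TGTTCT with 3 bases between them, was found before no member and before 3 of all promoters. The GC box GGGCGG or CCGCCC was found before 5 members (*Ptgs2*, *Ptges*, *Ptgir*, *Hpgd* and *Ptger4*), compared with 32.7% of all promoters. The TATA box TATAAA or TTTATA was found before *Tbxas1*, compared with 12.4%, and the half-site of the cAMP response element, TGACG or CGTCA, before none, compared with 17.7%. The windows of *Tbxas1* (chr6:38918736-38918985), *Ptges* (chr2:30903298-30903547) and *Ptgds* (chr2:25469750-25469999) lie inside the gene spans given below. Their RefSeq starts are thus not the outermost starts of these genes. Such matches are letters in a window and no measurement of binding.

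The members spanned a wide range of levels. Per gene length, as CPM per kilobase, *Hpgd* was highest in GR+/+ lungs with 376 ± 105 (SD, n = 3), above 99.6% of the genes tested. *Ptgis* followed with 48.0 ± 10.7, *Ptgs1* with 28.6 ± 2.91 and *Ptgs2* with 14.6 ± 5.88 CPM per kilobase. None of these neighbours overlapped in GR+/+ libraries. *Ptges* was at 5.54 ± 1.19 CPM per kilobase, and the receptor genes *Ptgir* (2.56 ± 1.23), *Ptger4* (1.86 ± 0.62) and *Ptger2* (1.34 ± 0.23) came next, each overlapping its neighbour. *Tbxas1* (0.32 ± 0.07) and *Ptgds* (0.25 ± 0.10) were lowest and overlapped each other.

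In GRdim/dim lungs the order differed at a single place, with *Ptger4* (3.02 ± 0.69 CPM per kilobase, SD, n = 3) before *Ptgir* (2.74 ± 1.76), and these overlapped. *Ptgs1* was at 11.7 ± 0.84 and *Ptgs2* at 10.4 ± 4.37 CPM per kilobase, so that the 2 cyclooxygenase genes, separate in GR+/+ lungs, overlapped in GRdim/dim lungs. *Tbxas1* (0.56 ± 0.03) and *Ptgds* (0.22 ± 0.09) no longer overlapped.

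**Figure D1:**
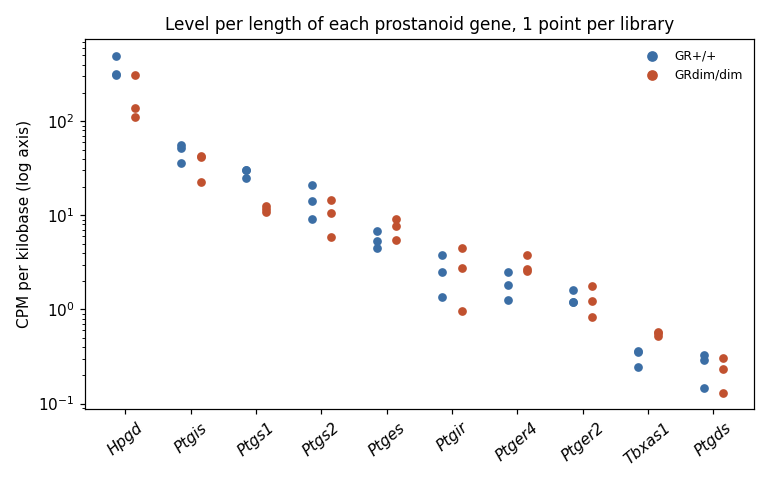
Level of each prostanoid gene in CPM per kilobase of gene length (log axis), 1 point per library, with GR+/+ in blue and GRdim/dim in orange and genes ordered by their mean in GR+/+ lungs. *Hpgd* lies highest, and *Tbxas1* and *Ptgds* lie below 0.6 CPM per kilobase in all 6 libraries.

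*Ptgs1* encodes cyclooxygenase-1, the form that most tissues hold without a stimulus (ENSMUSG00000047250, chromosome 2 of GRCm38 from 36230426 to 36252272, plus strand). It was measured at 117, 118 and 98.0 CPM in GR+/+ replicates 1, 2 and 3, and at 45.8, 42.0 and 48.6 CPM in GRdim/dim replicates 1, 2 and 3. All GRdim/dim libraries were thus below all GR+/+ libraries, with a gap far wider than the spread within either genotype. The mean was 111 ± 11.3 CPM in GR+/+ and 45.5 ± 3.27 CPM in GRdim/dim lungs (SD, n = 3 each), 2.44-fold lower in GRdim/dim lungs. The log2 fold change was -1.29 with a standard error of 0.16 and an adjusted *p*-value of 0.0164 (edgeR), rank 9 of all genes tested by *p*-value. Only 2.16% of the genes tested had a larger fold change in either direction. With DESeq2 the adjusted *p*-value was 1.15e-07.

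When single libraries were left out, the log2 fold change of *Ptgs1* stayed between -1.37 and -1.23. The adjusted *p*-value then rose to 0.0824 without GR+/+ replicate 1, 0.0784 without GR+/+ replicate 2, 0.0521 without GRdim/dim replicate 1 and 0.0748 without GRdim/dim replicate 2, so that the call was lost in 4 of 6 cases. In bulk tissue, fewer cells that express a gene and less RNA of it per cell cannot be told apart. Platelets, which rely on cyclooxygenase-1, had markers summing to 38.1 to 61.8 CPM in GR+/+ and 42.2 to 55.9 CPM in GRdim/dim lungs, with *Gp1bb* at 0 in all 6 libraries. The summed markers of mast cells, endothelial cells, fibroblasts and smooth muscle likewise overlapped between genotypes. Of the single markers, all 6 mast cell genes tested had positive log2 fold changes (2 with an unadjusted *p*-value under 0.05, 1 called by DESeq2), and 9 of 10 endothelial genes had negative ones (2 of these and the 1 positive gene with an unadjusted *p*-value under 0.05, 1 called by DESeq2). Of the 9 platelet genes tested, 6 had positive and 3 negative log2 fold changes (1 positive gene with an unadjusted *p*-value under 0.05, 1 called by DESeq2). None of these markers was called by edgeR, and their part in the level of *Ptgs1* was not tested. Of the exon bases of *Ptgs1*, 148 overlap *Gm43621* on the opposite strand, which had 1 to 37 counts per library against at least 752 of *Ptgs1*.

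*Ptgs2* encodes cyclooxygenase-2, the inducible form (ENSMUSG00000032487, chromosome 1 from 150100031 to 150108227, plus strand). Its level was 41.5, 64.5 and 95.2 CPM in GR+/+ replicates 1 to 3 and at 48.7, 67.0 and 27.1 CPM in GRdim/dim replicates 1 to 3. The genotypes overlapped widely, with the highest value in GR+/+ replicate 3 and the lowest in GRdim/dim replicate 3. The means were 67.1 ± 26.9 CPM and 47.6 ± 20.02 CPM (SD, n = 3 each). This is a log2 fold change of -0.49 with a standard error of 0.35 and an adjusted *p*-value of 0.731 (edgeR). Without one or another library it lay between -0.82 and -0.15, and with a covariate for sex-linked expression it was -0.16.

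Within a library, the ratio of *Ptgs2* to *Ptgs1* levels per length does not depend on how libraries were scaled. It was 0.301, 0.463 and 0.824 in GR+/+ replicates 1 to 3 and 0.903, 1.35 and 0.473 in GRdim/dim replicates 1 to 3. Only GRdim/dim replicate 2 held more *Ptgs2* than *Ptgs1* per length, and GRdim/dim replicate 3 lay among the GR+/+ libraries. On the log2 scale the mean ratio was -1.04 ± 0.73 in GR+/+ and -0.26 ± 0.77 in GRdim/dim lungs (SD, n = 3 each), a difference of 0.78. It was 0.43 without GR+/+ replicate 1 or GRdim/dim replicate 2, and 1.19 without GRdim/dim replicate 3.

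**Figure D2:**
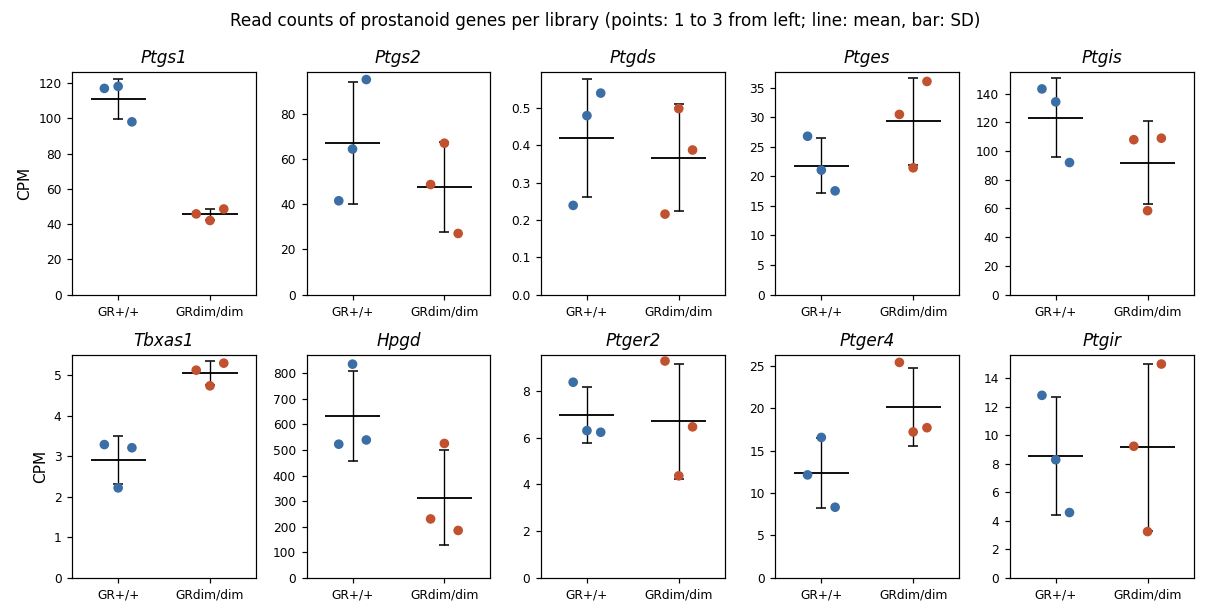
Level in CPM (vertical axis, from 0) of each of the 10 genes in 3 GR+/+ and 3 GRdim/dim libraries, as points for replicates 1 to 3 from left to right, with the mean as a line and the SD as a bar. *Ptgs1* lies lower, and *Tbxas1* and *Ptger4* higher, in every GRdim/dim library, and the other 7 genes overlap.

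*Ptges* encodes microsomal prostaglandin E synthase-1, which acts downstream of the cyclooxygenases to make prostaglandin E2 (ENSMUSG00000050737, chromosome 2 from 30889471 to 30929863, minus strand). It was measured at 26.8, 21.04 and 17.5 CPM in GR+/+ and at 30.5, 21.4 and 36.0 CPM in GRdim/dim replicates 1 to 3. GRdim/dim replicate 2 lay among the GR+/+ libraries and the other GRdim/dim libraries above all of them. This is a log2 fold change of 0.43 with a standard error of 0.24 and an adjusted *p*-value of 0.637. For *Ptges* this was 0.25 without GRdim/dim replicate 3 and 0.21 with a covariate for sex-linked expression.

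*Ptgis* encodes prostacyclin synthase, an enzyme of vessel walls (ENSMUSG00000017969, chromosome 2 from 167191805 to 167240604, minus strand). Its level was 143, 134 and 91.9 CPM in GR+/+ and at 108, 58.4 and 109 CPM in GRdim/dim replicates 1 to 3. The genotypes overlapped, and GRdim/dim replicate 2 had the lowest value. It differed by a log2 fold change of -0.42 with a standard error of 0.26 and an adjusted *p*-value of 0.668. For *Ptgis* this was -0.18 without GRdim/dim replicate 2 and -0.70 with a covariate for sex-linked expression.

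*Tbxas1* encodes thromboxane A synthase, best known from platelets and macrophages (ENSMUSG00000029925, chromosome 6 from 38875404 to 39084585, plus strand). It had few reads, 55, 37 and 101 counts in GR+/+ and 95, 114 and 82 counts in GRdim/dim replicates 1 to 3. Scaled to library size, these were 3.29, 2.22 and 3.21 CPM and 5.12, 4.74 and 5.30 CPM. All GRdim/dim libraries were above all GR+/+ libraries, and the gap between 3.29 and 4.74 CPM can be compared with the exact Poisson 95% intervals of these 2 libraries, 2.48 to 4.28 and 3.91 to 5.69 CPM, which overlap and cover counting error only.

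The mean of *Tbxas1* was 2.90 ± 0.60 CPM in GR+/+ and 5.05 ± 0.29 CPM in GRdim/dim lungs (SD, n = 3 each), 1.74-fold higher in GRdim/dim lungs. The log2 fold change was 0.79 with a standard error of 0.30 and an adjusted *p*-value of 0.443 (edgeR; 0.362 with DESeq2). The summed markers of alveolar macrophages were 515 to 639 CPM in GR+/+ and 467 to 589 CPM in GRdim/dim lungs, and those of platelets overlapped as given for *Ptgs1*. Markers of neutrophils summed to 281 to 546 CPM and 384 to 1175 CPM. Of their 9 tested genes, 8 had positive log2 fold changes and 1 a negative one. An unadjusted *p*-value under 0.05 was found for 3, all higher in GRdim/dim lungs, and 2 were called by DESeq2. Of the 8 alveolar macrophage genes, 5 had negative and 3 positive log2 fold changes. There, 1 lower and 1 higher gene had an unadjusted *p*-value under 0.05, and 1 was called by DESeq2. No marker of either list was called by edgeR, and the part of these cells in the level of *Tbxas1* was not tested.

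The ratio of *Ptgis* to *Tbxas1* per length sets the synthases of prostacyclin and thromboxane A2, which act in opposite ways on vessels and platelets, against each other. It was 154, 214 and 102 in GR+/+ and 74.6, 43.7 and 72.8 in GRdim/dim replicates 1 to 3, so that all GRdim/dim libraries were below all GR+/+ libraries. The log2 ratio was 7.23 ± 0.54 in GR+/+ and 5.95 ± 0.44 in GRdim/dim lungs (SD, n = 3 each), a difference of -1.27 or 2.42-fold. Leaving out single libraries gave differences between -1.55 and -1.02. Both genes are members picked with their genotype differences known, and neither was called. The separation of the ratio reuses that contrast and is a description, not a test. The ratio rests on the low counts of *Tbxas1*, and it compares RNA levels of mixed tissue, in which the 2 enzymes may be in different cells.

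*Ptgds*, the gene of lipocalin-type prostaglandin D synthase (ENSMUSG00000015090, chromosome 2 from 25466709 to 25470046, minus strand), was close to the limit of detection. It had 4, 8 and 17 counts in GR+/+ and 4, 12 and 6 counts in GRdim/dim replicates 1 to 3, or 0.24 to 0.54 CPM and 0.22 to 0.50 CPM. This is too few to enter the fit, and a difference between genotypes was not detectable at this depth. Without the filter on low counts its log2 fold change was -0.20 with a standard error of 0.84.

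*Hpgd* encodes the enzyme that starts the breakdown of prostaglandin E2 and related prostanoids (ENSMUSG00000031613, chromosome 8 from 56294585 to 56321043, plus strand). It was measured at 523, 836 and 539 CPM in GR+/+ and at 230, 526 and 185 CPM in GRdim/dim replicates 1 to 3. GRdim/dim replicates 1 and 3 were below all GR+/+ libraries, while replicate 2 reached the lowest GR+/+ library. The mean was 633 ± 176 CPM in GR+/+ and 314 ± 185 CPM in GRdim/dim lungs (SD, n = 3 each), 2.02-fold lower in GRdim/dim lungs. The log2 fold change was -1.01 with a standard error of 0.37 and an adjusted *p*-value of 0.432 (edgeR; 0.0947 with DESeq2).

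The value of *Hpgd* depended on GRdim/dim replicate 2. Without it the log2 fold change was -1.61, and over all single libraries left out it ranged from -1.61 to -0.74. Without a filter on low counts, the adjusted *p*-value of *Hpgd* was 0.000548 (edgeR), past the threshold, at a log2 fold change of -1.02. That setting called 522 genes in place of 28 over the whole transcriptome. *Hpgd* itself, at 2868 to 16975 counts per library, was not a gene of low counts. The ratio of *Ptges* to *Hpgd* per length, synthesis against breakdown of prostaglandin E2, was 0.0219, 0.0108 and 0.0139 in GR+/+ and 0.0566, 0.0175 and 0.0833 in GRdim/dim replicates 1 to 3. GRdim/dim replicate 2 lay among the GR+/+ libraries, and the mean log2 ratio differed by 1.55 (-6.07 ± 0.52 and -4.52 ± 1.17, SD, n = 3 each). This difference was 1.08 without GRdim/dim replicate 3 and 2.21 without GRdim/dim replicate 2.

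**Figure D3:**
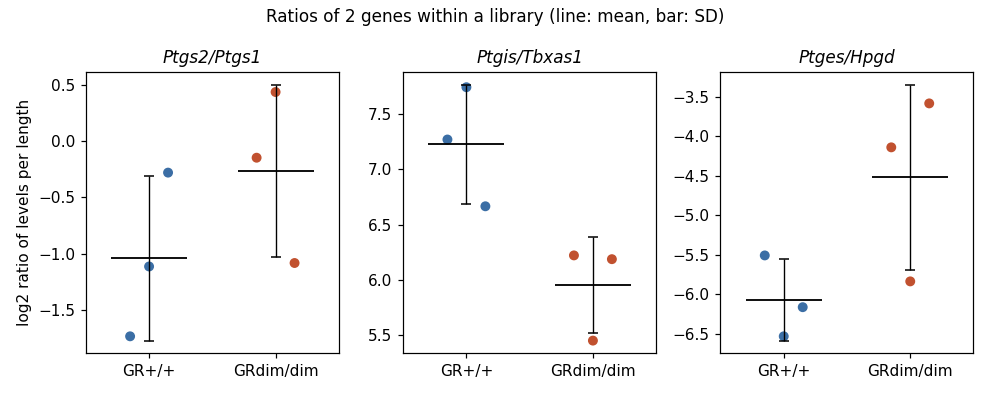
Log2 ratio of the levels per length of 2 genes within each library (vertical axis), for 3 GR+/+ and 3 GRdim/dim libraries as points, with the mean as a line and the SD as a bar. The genotypes do not overlap for *Ptgis* to *Tbxas1* and overlap for *Ptgs2* to *Ptgs1* and for *Ptges* to *Hpgd*.

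*Ptger4* encodes EP4, a receptor of prostaglandin E2 that raises cyclic AMP (ENSMUSG00000039942, chromosome 15 from 5206661 to 5244187, minus strand). Its level was 12.1, 16.5 and 8.32 CPM in GR+/+ and at 25.4, 17.2 and 17.7 CPM in GRdim/dim replicates 1 to 3. All GRdim/dim libraries were above all GR+/+ libraries, although GRdim/dim replicate 2 and GR+/+ replicate 2 were close. The means were 12.3 ± 4.12 CPM and 20.1 ± 4.60 CPM (SD, n = 3 each), 1.63-fold higher in GRdim/dim lungs. On the log2 scale the difference was 0.71 with a standard error of 0.29 and an adjusted *p*-value of 0.469 (edgeR; 0.318 with DESeq2).

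EP4 is also found on lymphocytes, and the sums of lymphocyte markers were higher in GRdim/dim lungs, as was *Ptger4*. The 9 markers of B cells summed to 91.4 to 186 CPM in GR+/+ and 216 to 741 CPM in GRdim/dim lungs. The 10 markers of T and NK cells summed to 24.2 to 51.2 CPM and 63.7 to 81.4 CPM. Neither sum overlapped between genotypes, none of these markers was called by edgeR, and 7 of the 9 and 8 of the 10 had an unadjusted *p*-value under 0.05 (1 in each list was called by DESeq2). Within GRdim/dim lungs the order was the reverse of that of *Ptger4*. Replicate 1 had the highest *Ptger4* and the lowest sums (216 and 63.7 CPM). Replicate 2 had the lowest *Ptger4* and the highest sums (741 and 81.4 CPM). Within GR+/+ lungs, replicate 2 was highest in *Ptger4* and in both sums. No marker of either list was at 0 in any library, and the part of these cells in the level of *Ptger4* was not tested. Of the sequence windows of *Ptger4*, 15.2% also occur in *Ttc33* or in the pseudogene *Gm15937*. On the opposite strand, 82 of its exon bases overlap *Ttc33* and 1015 overlap *Gm15937*. *Ttc33* had 326 to 895 counts per library and *Gm15937* at most 1. How the counting treated reads in these stretches is not given, so that some may have been shared or lost.

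*Ptger2* encodes EP2, the other receptor of prostaglandin E2 that raises cyclic AMP (ENSMUSG00000037759, chromosome 14 from 44988195 to 45003820, plus strand). It was measured at 8.37, 6.30 and 6.23 CPM in GR+/+ and at 9.27, 4.36 and 6.46 CPM in GRdim/dim replicates 1 to 3. The GRdim/dim values enclosed those of GR+/+. The log2 fold change was -0.06 with a standard error of 0.32 and changed sign without GR+/+ replicate 1 (0.10) or GRdim/dim replicate 2 (0.18).

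*Ptgir* encodes the prostacyclin receptor (ENSMUSG00000043017, chromosome 7 from 16906490 to 16910905, plus strand). Its level was 12.8, 8.27 and 4.57 CPM in GR+/+ and at 9.22, 3.24 and 14.98 CPM in GRdim/dim replicates 1 to 3, the widest relative spread of the receptor genes within both genotypes. This gave a log2 fold change of 0.10 with a standard error of 0.52. Its sign was the opposite without GR+/+ replicate 3 (-0.21) or GRdim/dim replicate 3 (-0.45), and with a covariate for sex-linked expression (-0.56).

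Counted over the 9 members that could be fitted, 1 was called (*Ptgs1*), against 0.169% of all genes, and the same gene alone with DESeq2, against 1.70%. An unadjusted *p*-value under 0.05 was found for 4 members, *Ptgs1* and *Hpgd* lower and *Tbxas1* and *Ptger4* higher, against 9.60% of all genes. Every GRdim/dim library was below every GR+/+ library for 1 member (7.05% of all genes) and above for 2 members (7.77% of all genes). The median log2 fold change of the members was -0.06, with 5 negative and 4 positive, beside 0.01 over all genes tested. The median size regardless of sign was 0.49, beside 0.21 over all genes. As the choice of members used this contrast, these counts do not bear on whether the members differ from other genes.

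**Figure D4:**
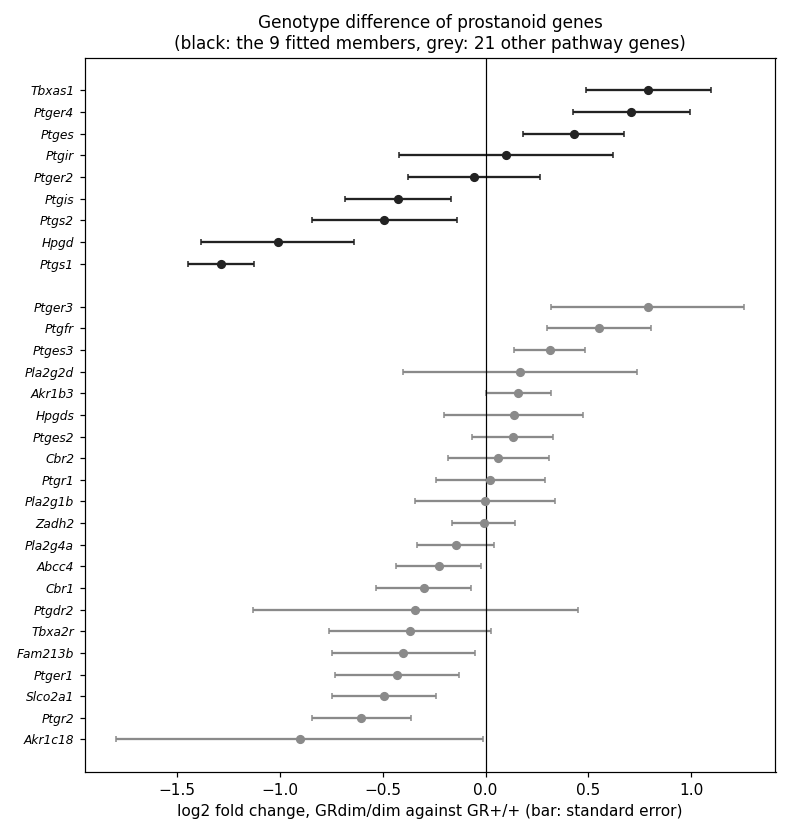
Log2 fold change of GRdim/dim against GR+/+ lungs (horizontal axis) with its standard error as a bar, for the 9 members that were fitted (black) and 21 other genes of the pathway (grey). *Ptgs1* has the lowest value of all 30 genes, -1.29, and the other pathway genes lie between -0.90 and 0.79.

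The rest of the pathway was taken from a list of 24 genes set by role, of which 21 had enough reads. The members had been picked from the same pathway with their genotype differences known, so the list may lack genes that differ. Its counts therefore do not bear on the pathway as a whole. None was called by edgeR or by DESeq2. An unadjusted *p*-value under 0.05 was found for 1 of the 21, again beside 9.60% of all genes. The median log2 fold change was -0.01 and its median size regardless of sign 0.30. *Pla2g5*, *Pla2g10* and *Ptgdr* had 0 to 4 counts per library and were not tested.

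The gene with an unadjusted *p*-value under 0.05 was *Ptgr2*, a prostaglandin reductase that acts after *Hpgd* in breakdown. It was measured at 16.6, 15.5 and 19.9 CPM in GR+/+ and at 8.95, 14.3 and 10.9 CPM in GRdim/dim replicates 1 to 3. All GRdim/dim libraries were below all GR+/+ libraries, but with a log2 fold change of -0.60, a standard error of 0.24 and an adjusted *p*-value of 0.466 it was not called (edgeR). The only other gene of the list without overlap was *Ptger1*, the EP1 receptor gene, which was picked out after its values were seen and had a log2 fold change of -0.43 with an adjusted *p*-value of 0.725.

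In each role, the gene with the highest mean level per length over the 6 libraries was not called either. *Slco2a1*, the transporter that brings prostaglandins into cells for breakdown, was measured at 977, 973 and 535 CPM in GR+/+ and at 633, 629 and 501 CPM in GRdim/dim replicates 1 to 3. GR+/+ replicate 3 lay among the GRdim/dim libraries, and the log2 fold change of *Slco2a1* was -0.50 with an adjusted *p*-value of 0.582 (edgeR). *Cbr2*, a carbonyl reductase of the airways, was far above any member per length at 1848 to 3163 CPM per kilobase, with a log2 fold change of 0.06. The thromboxane receptor gene *Tbxa2r* (1.43 to 3.999 CPM per kilobase, log2 fold change -0.37) and the phospholipase gene *Pla2g1b* (6.35 to 14.3 CPM per kilobase, log2 fold change 0.00) overlapped between genotypes. In GRdim/dim lungs alone, the receptor gene *Ptgfr* had a higher mean level per length than *Tbxa2r* (2.91 and 2.53 CPM per kilobase).

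For *Ptgs2*, *Ptgds*, *Ptger2* and *Ptgir*, the SD of CPM within each genotype was larger than the difference between the genotype means. For many members the deepest library of each genotype stood at the edge of its group. GR+/+ replicate 3 and GRdim/dim replicate 2 each held the most counts of their genotype. Of the 10 members, 6 were lowest in both of these libraries within their genotype (*Ptgs1*, *Ptges*, *Ptgis*, *Ptger2*, *Ptger4* and *Ptgir*), as were 12.6% of all genes tested. The members *Ptgs2* and *Ptgds* were highest in both, as were 11.4% of all genes. In smooth muscle markers, GR+/+ replicate 3 had the lowest sum of all libraries (256 CPM, against 486 to 652 CPM in the other 5), while GRdim/dim replicate 2 had 572 CPM. Whether depth or tissue make-up had a part in these values was not tested.

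The genes nearest in profile to *Ptgs1* were sought among all genes tested, as those with the smallest root mean square difference of log2 CPM over the 6 libraries, each gene centred on its own mean. They were *Zfp503* (difference 0.14), *Gm47003* (0.15), *Pdk4* (0.16), *1700008B11Rik* (0.17) and *Gm37969* (0.18), where the median over all genes was 0.71. *Pdk4*, a kinase that inhibits pyruvate dehydrogenase, was measured at 72.1, 62.0 and 65.4 CPM in GR+/+ and 25.1, 21.1 and 23.8 CPM in GRdim/dim replicates 1 to 3. *Zfp503* was at 141 to 192 CPM in GR+/+ and 61.6 to 85.3 CPM in GRdim/dim lungs, and the other 3 genes had at most 1.38 CPM in any library. As the profile of *Ptgs1* is mostly its genotype difference, such a search finds genes with a like difference. The log2 fold changes of these genes were -1.51 to -1.17, and their likeness to *Ptgs1* is a description only.

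By the same measure, the genes nearest to *Ptgs2* were *C230072F16Rik* (difference 0.07), *Esrrg* (0.11), *Hsd3b2* (0.13), *Efcab6* (0.15) and *Cfap61* (0.15), where the median over all genes was 0.65. *C230072F16Rik* was measured at 6.81, 9.23 and 14.99 CPM in GR+/+ and at 7.98, 10.1 and 4.20 CPM in GRdim/dim replicates 1 to 3. The order of libraries within each genotype was that of *Ptgs2*. The gene was chosen for its likeness to *Ptgs2* over these libraries, so this order is no separate result.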

How the data were processed

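Lung RNA was captured by poly(A) and sequenced, 1 library per mouse. What the authors deposited are raw counts of reads on each gene, neither normalized nor pooled, with a gene length whose derivation is not given. The submitters' processing notes name mm10 and DESeq2, while the aligner, counting tool, annotation release and strand setting are not given in the sources used here. All 10 members had the coordinates of GENCODE M21 (GRCm38).

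Counts were analysed in R 4.3.3 with edgeR 4.0.16 (TMM, filterByExpr, robust glmQLFit, glmQLFTest, Benjamini-Hochberg adjustment over 16568 genes), and with DESeq2 1.42.0 as an alternative. The code was tested on simulated data. A prior count of 2 entered log2 CPM. Levels per length divide CPM by the deposited gene length. Intervals of counts are exact Poisson intervals (95%).

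Members and lists were chosen with earlier results of these data known. Named were all members, other pathway genes called or with an unadjusted *p*-value under 0.05, the gene of highest mean TPM over the 6 libraries per role, and the 5 nearest profiles of *Ptgs1* and *Ptgs2*. Alternatives were RLE scaling, other filters, DESeq2, a replicate block, a covariate for sex-linked expression, leaving out each library, and calls without a minimum fold change. The labels do not give which mouse was which sex, nor a batch. Libraries of the same genotype were further apart than counting error allows (chi-square of 20.6 to 73.5 per degree of freedom). Marker lists of 14 cell types were summed in CPM, of which those not named with values (cardiomyocytes, club and ciliated cells, alveolar type 1 cells and mesothelium) overlapped between genotypes. Promoters came from the RefSeq table for GRCm38.p6, which held 9 of 10 members.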

Additional observations from a re-analysis of the deposited data

How the results depend on the processing

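The number of genes called in the whole transcriptome, 28, was 522 without a filter on low counts and 274 with DESeq2, and between 4 and 22 when single libraries were left out (4 without GR+/+ replicate 2, 12 without GR+/+ replicate 1, 17 without GR+/+ replicate 3, 14 without GRdim/dim replicate 3). It was 29 with RLE scaling or with at least 10 counts in every library, 20 with a covariate for sex-linked expression, and 28 with no threshold on the fold change. Correlations of deviations between genotypes were 0.22, 0.04 and -0.05 for the same replicate number and -0.27 to 0.19 for different numbers. Replicate numbers thus showed no clear pairing of libraries, though the highest value was for a shared number. With the replicate block 34 genes were called. The number of other pathway genes called was 0 under each of these alternatives.

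Among the members, the log2 fold change of *Ptgir*, 0.10, was -0.049 with the replicate block, -0.56 with the covariate for sex-linked expression, and -0.45 to 0.52 when single libraries were left out. That of *Ptger2* was -0.36 to 0.18 when single libraries were left out. The other 7 fitted members kept their sign under all of these alternatives, and the cause of the changes was not tested. *Hpgd* was called without a filter on low counts and under no other alternative. With 50 bases after the start site included, 2 members instead of 1 held a TATA box (*Hpgd* besides *Tbxas1*). The half-site of the cAMP response element was then held by 1 member instead of 0 (*Ptgs2*). Depth limits *Ptgds* and *Tbxas1* most, with 4 to 17 and 37 to 114 counts per library.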
